A study of Mus musculus with 9 samples.

Results

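In the retinas of rd10 mice, 37 genes of the lysosome and of phagocytic clearance were followed, out of the 22337 genes in the deposited table. The genes were picked by name for what their products are known to do, and each matched 1 row. They comprised 9 cathepsins and related proteases, 10 other soluble hydrolases and cofactors, 8 proteins of the lysosomal membrane, 2 cholesterol exporters, 7 receptors and bridging ligands of phagocytic uptake, and the transcription factor gene Tfeb. RNA-seq covered 3 groups with 3 libraries each, all at P28. WT retinas came from C57 BL/6J mice that had received no injection. In rd10 mice a defect of Pde6b, the gene of a rod phosphodiesterase subunit, leads to loss of the photoreceptors. NS-treated rd10 mice had been given 1 μl of normal saline in each eye at P14 and at P21, and MSC-EVs-treated rd10 mice had been given the same volume of extracellular vesicles from human umbilical cord mesenchymal stem cells on the same days. One label field places the injections in the vitreous and another calls them intravenous. NS-treated rd10 therefore differed from WT both in genotype and in having been injected. The sources used here give neither the sex of the mice nor whether each library came from separate animals, so the p-values measure the spread between these libraries.

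Lysosomes digest material that a cell takes up or recycles. Cathepsins cut proteins, glycosidases and lipases break down sugar chains and lipids, membrane proteins such as LAMP1 and LAMP2 line the organelle, and NPC1 and NPC2 move cholesterol out of it. In the retina, dying photoreceptors and shed outer segments are cleared by microglia, by the retinal pigment epithelium and by Müller glia, through receptors such as MERTK and the integrin αvβ5, whose bridging ligands GAS6, protein S and MFG-E8 bind phosphatidylserine on the material to be engulfed.

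The estimated counts per library summed to between 19491721 and 62532357, with MSC-EVs replicate 3 the deepest and the others no higher than 28545647. Expression is given as CPM, the estimated counts scaled to a common library size with TMM factors of 0.92 to 1.05, unless FPKM is named. Replicates differed by more than sampling noise (chi-square divided by degrees of freedom, 3.99 to 5.67 in WT, 9.17 to 14.1 in NS-treated and 13.2 to 30.2 in MSC-EVs-treated rd10). Where replicates differ in this way, the measure grows with depth. The pairs with the deep MSC-EVs replicate 3 gave 21.4 and 30.2, and MSC-EVs replicates 1 and 2 gave 13.2. The 12 rod markers, Gnat1 among them, summed to 79300 to 84900 CPM in WT and to 16100 to 23400 CPM in the 6 rd10 libraries. MSC-EVs replicates 1 and 2 carried Y-linked transcripts at 183 and 189 CPM, while the other 7 libraries had at most 0.5 CPM, so that 2 of the 3 MSC-EVs-treated libraries differed from all NS-treated libraries in this respect. Since whole retinas were sequenced, fewer cells of a type and less RNA per cell cannot be told apart.

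The lysosomal genes made up a larger share of the counts in NS-treated rd10 than in WT retinas. Such a share does not give the amount of RNA per retina. The 37 genes together took 0.391% to 0.394% of all counts in the WT libraries and 0.724% to 0.776% in the NS-treated libraries, or 4240 ± 30 CPM against 7220 ± 312 CPM (SD, n = 3). In edgeR's quasi-likelihood test, adjusted by Benjamini-Hochberg over the 14644 genes tested, 36 of the 37 passed the filter on low counts, and 27 of these rose (75%), 3 fell and 6 did not pass the threshold of an adjusted p of 0.05. Over all genes tested, 31.2% rose and 30.1% fell. Rises made up 50.8% of those calls over all genes, but 25.3% when libraries were scaled to inner retina neuron markers and 71.5% on the FPKM scale. A rise of at least 2-fold was found in 17 of the 36 (47.2%), against 9.16% of all genes, and a fall of that size in none of the 36, against 3.56% of all genes. The number of lysosomal genes at least 2-fold changed was 12 when libraries were scaled to inner retina neuron markers. The median log2 fold change of the 36 was 0.79, against 0.01 for all genes tested. The libraries of WT and NS-treated rd10 did not overlap in 31 of the 36 genes, 28 of them higher in rd10 and 3 lower, against 66.9% of all genes in either direction. Cd68, Ctss and Laptm5 stood at the top with rises of more than 10-fold, and Gas6, Npc1 and Mcoln1 were the genes that fell.

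**Figure D1:**
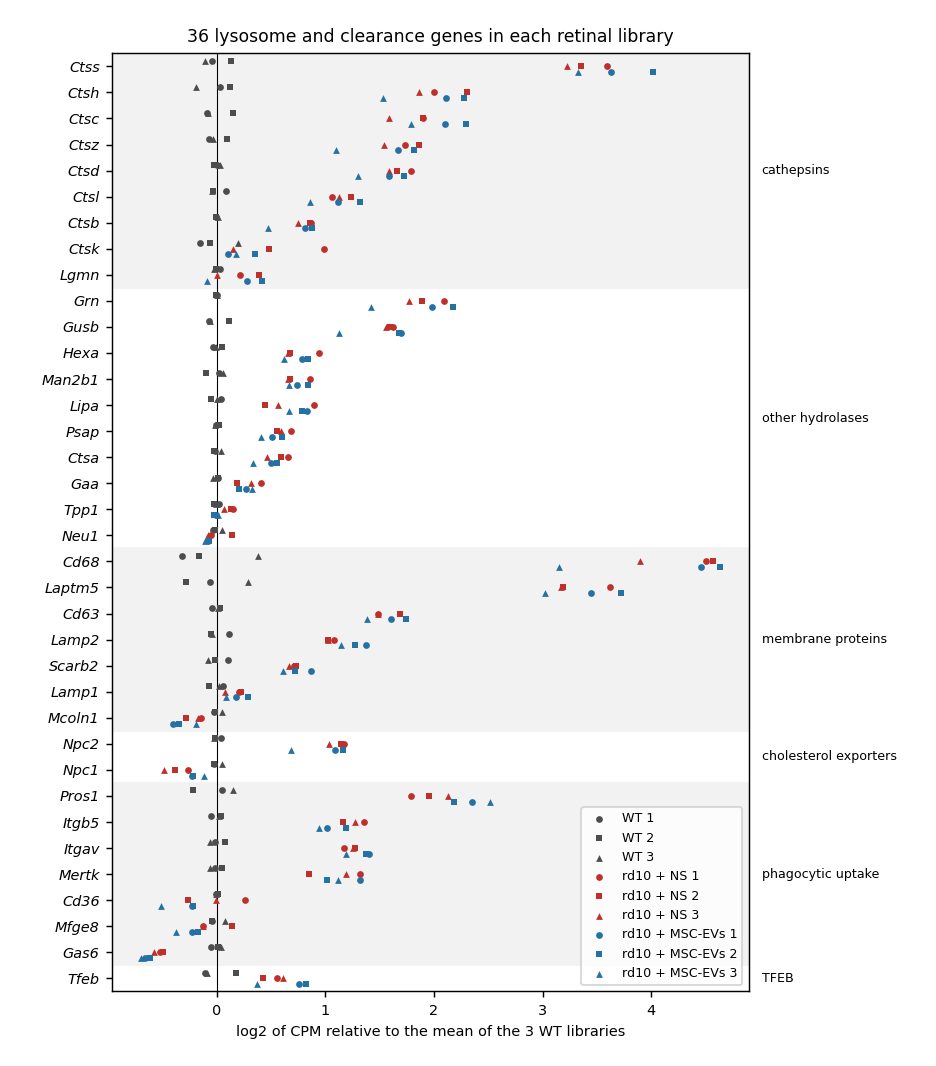
Expression of 36 genes in each of the 9 libraries (points, coloured by group and shaped by replicate), as the log2 of CPM relative to the mean of the 3 WT libraries. Genes are grouped by role and ordered within a role by the log2 fold change between NS-treated rd10 and WT, and Atp6v0d2 is left out because 2 WT libraries have no count. Cd68, Ctss and Laptm5 lie farthest to the right in both rd10 groups, and Gas6 lies left of its WT libraries.

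Among the cathepsins, 7 of 9 rose, against 31.2% of all genes tested, and the other 2, Ctsk and Lgmn, did not pass the threshold. Ctss, which encodes cathepsin S, a protease of microglia and macrophages that trims the invariant chain of MHC class II, was at 11.8, 13.4 and 11.3 CPM in WT and at 147, 125 and 114 CPM in NS-treated rd10. Each NS-treated library was far above each WT library, a 10.6-fold rise (log2 fold change 3.40, standard error 0.11, edgeR adjusted p = 3.19e-09). Ctsh, an aminopeptidase, went from 14.2, 15.1 and 12.2 CPM to 55.5, 68.7 and 50.5 CPM, a 4.18-fold rise. Ctsc, which activates granule serine proteases, rose 3.48-fold, from 16.9 ± 1.66 to 58.9 ± 7.2 CPM (SD, n = 3). Ctsz, a carboxypeptidase, rose 3.29-fold, from 24.5 ± 1.56 to 80.7 ± 8.95 CPM. None of the libraries of these 4 genes overlapped between the groups, a trait of 66.9% of all genes tested.

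Ctsd, which encodes the main aspartic protease of lysosomes, combined a high level with a large rise. It was at 385, 377 and 391 CPM in WT and at 1330, 1210 and 1150 CPM in NS-treated rd10 (log2 fold change 1.67, standard error 0.07, edgeR adjusted p = 2.28e-09, the smallest of the 36). Ctsl and Ctsb, the broad cysteine proteases cathepsin L and cathepsin B, rose 2.2-fold and 1.77-fold, the latter from 526, 525 and 533 CPM to 965, 958 and 885 CPM. Lgmn, the asparagine-specific protease that processes other cathepsins, was at 211 ± 4.19 and 244 ± 32.8 CPM (SD, n = 3), with NS replicate 3 at the WT level (edgeR adjusted p = 0.0558). Ctsk, the collagen-cutting protease of osteoclasts, was near 1 CPM throughout, from 0.628 to 0.801 CPM in WT and from 0.778 to 1.39 CPM in NS-treated rd10 (edgeR adjusted p = 0.137).

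Of the 10 other hydrolases and cofactors, 8 rose, 2 of them at least 2-fold, against 31.2% and 9.16% of all genes tested. Grn, which encodes progranulin, a secreted protein that is also needed for lysosomal function, was at 36.9, 36.8 and 36.9 CPM in WT and at 157, 137 and 126 CPM in NS-treated rd10, a 3.79-fold rise (log2 fold change 1.92, standard error 0.08, edgeR adjusted p = 4.79e-09). Gusb, the β-glucuronidase gene, rose 3.01-fold from 9.12 ± 0.671 to 27.5 ± 0.588 CPM (SD, n = 3). Smaller rises were found for Hexa (β-hexosaminidase α, 1.7-fold), Man2b1 (α-mannosidase, 1.67-fold), Lipa (acid lipase, 1.57-fold), Psap (prosaposin, the precursor of sphingolipid activators, 1.53-fold), Ctsa (the protective protein of galactosidase and neuraminidase, 1.48-fold) and Gaa (acid α-glucosidase, 1.23-fold). Psap was the most abundant of them, at 735, 747 and 728 CPM in WT and 1180, 1080 and 1110 CPM in NS-treated rd10.

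Neu1 and Tpp1 did not pass the threshold. Neu1, the lysosomal sialidase, was at 44 ± 1.38 and 44.1 ± 3.87 CPM (SD, n = 3), with a 95% interval of the log2 fold change from -0.16 to 0.16. Tpp1, tripeptidyl peptidase 1, was at 182, 176 and 178 CPM in WT and at 199, 196 and 187 CPM in NS-treated rd10, so its libraries did not overlap, but the adjusted p was 0.0781 with edgeR. Ctsk, Lgmn and Tpp1 were called higher on both FPKM scales, and Lgmn and Tpp1 also without NS replicate 3 (edgeR adjusted p = 0.0018 and 0.0492), whereas with inner retina scaling their log2 fold changes were 0.33, -0.04 and -0.15 and none passed.

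The 8 lysosomal membrane proteins held both the largest rise and 1 of the 3 falls. Cd68, which encodes macrosialin, a protein of microglial and macrophage lysosomes, was at 1.17, 1.3 and 1.9 CPM in WT and at 33.1, 34.7 and 21.8 CPM in NS-treated rd10. All NS-treated libraries lay far above all WT libraries, although NS replicate 3 stood below the other two, and the fold was 20.6 (log2 fold change 4.37, standard error 0.24, edgeR adjusted p = 3.66e-07). Laptm5, a transporter-like protein of blood-derived and microglial lysosomes, went from 4.53, 3.89 and 5.76 CPM to 58.1, 43 and 42.5 CPM, a 10.2-fold rise. Cd63, a tetraspanin of late endosomes that also marks extracellular vesicles, rose 2.93-fold from 42.2 ± 1.1 to 124 ± 10.8 CPM (SD, n = 3).

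The structural and transport proteins of the same membrane moved less. Lamp2 rose 2.05-fold from 118, 105 and 106 CPM to 231, 221 and 221 CPM, and Scarb2, the receptor that carries β-glucocerebrosidase to lysosomes, rose 1.62-fold. Lamp1 was at 349, 320 and 341 CPM in WT and at 388, 392 and 355 CPM in NS-treated rd10. The rise (log2 fold change 0.17, edgeR adjusted p = 0.0302) became -0.09 when libraries were scaled to inner retina neuron markers, and the call was lost in 4 of the 6 fits that left out 1 library. Mcoln1, the calcium channel of lysosomes, went from 48, 48.3 and 50.6 CPM to 44.4, 40.2 and 43.5 CPM and fell by 0.20 in log2 units (edgeR adjusted p = 0.0189), but on the FPKM scale it was at 22.8 ± 0.756 and 23.1 ± 1.2, a difference of 0.02 in the other direction. The call of Mcoln1 was also lost without WT replicate 2 or WT replicate 3 (edgeR adjusted p = 0.0507 and 0.0812). Atp6v0d2, a subunit of the proton pump found in macrophages and osteoclasts, did not pass the filter. It had 0, 1 and 0 counts in WT and 20, 22 and 1 counts in NS-treated rd10, so that NS replicate 3 was at the WT level.

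The cholesterol exporters moved in opposite directions. Npc2, the soluble carrier, rose 2.17-fold from 44, 42.4 and 42.1 CPM to 96.6, 94.7 and 87.8 CPM (edgeR adjusted p = 3.02e-08). Npc1, the membrane protein to which NPC2 hands its cholesterol, fell from 128, 128 and 134 CPM to 108, 99.3 and 93.1 CPM (log2 fold change -0.38, standard error 0.06, edgeR adjusted p = 0.000257). Neither gene's libraries overlapped between the groups, which was also so for 66.9% of all genes tested.

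Among the 7 genes of phagocytic uptake, 4 rose (Mertk, Itgav, Itgb5 and Pros1), Gas6 fell, and Mfge8 and Cd36 did not pass the threshold. The shares over all genes tested were 31.2% higher and 30.1% lower. Mertk, the receptor tyrosine kinase whose loss stops outer segment uptake by the pigment epithelium, was at 11, 11.5 and 10.6 CPM in WT and at 27.7, 20 and 25.3 CPM in NS-treated rd10, a 2.2-fold rise (log2 fold change 1.14, standard error 0.12, edgeR adjusted p = 6.23e-06). Itgav and Itgb5, the chains of the αvβ5 integrin that binds outer segments, rose 2.35-fold and 2.41-fold, to 158 ± 5.81 and 99.6 ± 6.93 CPM (SD, n = 3). The 14 pigment epithelium markers, Rpe65 and Best1 among them, summed to 96.4 to 152 CPM in WT. In NS replicates 1, 2 and 3 they summed to 394, 125 and 275 CPM, the same order as that of Mertk. NS replicate 2 was thus within the WT range of these markers, with Mertk above WT. In MSC-EVs replicates 1, 2 and 3 the markers summed to 145, 132 and 292 CPM. Mertk was at 27.7, 22.5 and 24.1 CPM there, a different order. Ttr contributed most in NS replicates 1 and 3, at 120 and 88.1 CPM. The part of these markers in the rise of Mertk was not tested.

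The classical ligands of MERTK changed in opposite directions. Pros1, the gene of protein S, was at 17.6, 14.6 and 18.9 CPM in WT and at 58.9, 65.7 and 74.2 CPM in NS-treated rd10, a 3.88-fold rise (log2 fold change 1.96, standard error 0.10, edgeR adjusted p = 3.09e-08). Gas6 went from 197, 206 and 209 CPM to 142, 145 and 137 CPM and so fell (log2 fold change -0.54, standard error 0.05, edgeR adjusted p = 3.68e-06). In WT, Gas6 was thus at 204 ± 5.98 CPM and Pros1 at 17 ± 2.19 CPM (SD, n = 3). Per transcript length, Gas6 was at 74.1 ± 2.25 FPKM and Pros1 at 4.77 ± 0.583 FPKM in WT, and in NS-treated rd10 they were at 57.8 ± 1.51 and 21 ± 2.58 FPKM. Mfge8, the ligand of the αv integrins, was at 290 ± 13.2 and 284 ± 31.2 CPM with overlapping libraries (95% interval of the log2 fold change from -0.19 to 0.13). Cd36, a scavenger receptor for oxidised lipids, was at 3.87 ± 0.0223 and 3.9 ± 0.699 CPM and did not pass the threshold either (interval -0.37 to 0.41).

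**Figure D2:**
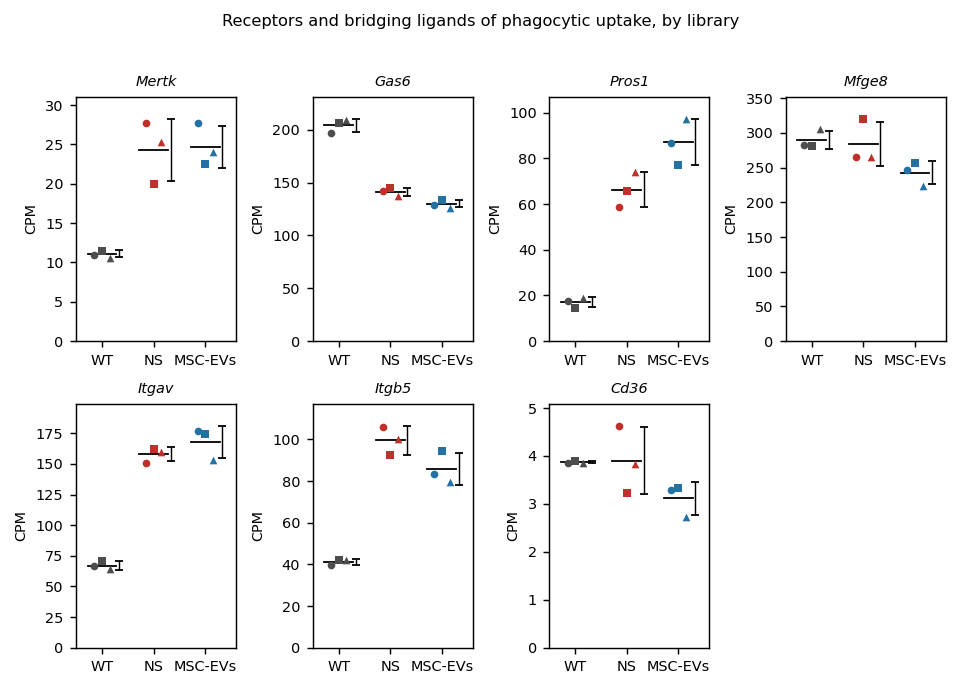
CPM of the 7 receptor and ligand genes of phagocytic uptake in each library of the 3 groups (points, shaped by replicate), with the group mean (horizontal line) and its SD (bar beside the points, n = 3). Pros1 is lowest in WT and highest in MSC-EVs-treated rd10 with no overlap between groups, and Gas6 runs the other way.

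Tfeb, which encodes the transcription factor that switches on lysosomal genes through a motif called the CLEAR element, was at 5.25, 6.4 and 5.3 CPM in WT and at 8.28, 7.6 and 8.6 CPM in NS-treated rd10, a 1.44-fold rise (log2 fold change 0.53, standard error 0.14, edgeR adjusted p = 0.00535). The call was lost when libraries were scaled to inner retina neuron markers. The core of the element, CACGTG, was searched in RefSeq promoters (GRCm38.p6, 250 bases before to 50 after the annotated start, both strands), which cover 33 of the 37 genes (not Ctsb, Ctsh, Atp6v0d2 and Npc1). It was present in 7 of these 33 genes (21.2%), against 8.09% of the 27025 genes in the promoter table. TCACGTG, which contains the core, was present in 6 of the 33 (18.2%) against 4.29%, and TCACGTGA, which contains both, in 3 (9.09%) against 1.12%. The 3 genes with the longest form searched were Ctsd, Ctsa and Mcoln1, and their promoter stretches are shown because they carry TCACGTGA, in capitals. Ctsa holds it at 2 places, whose stretches overlap.
Ctsd, chr7:142387909-142387936, minus strand: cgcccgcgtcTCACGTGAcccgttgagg
Ctsa, chr2:164833750-164833777, plus strand: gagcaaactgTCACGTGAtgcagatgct
Ctsa, chr2:164833767-164833794, plus strand: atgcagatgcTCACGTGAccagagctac
Mcoln1, chr8:3500463-3500490, plus strand: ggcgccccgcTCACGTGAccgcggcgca

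These 3 genes did not move together, since Ctsd rose 3.19-fold, Ctsa rose 1.48-fold and Mcoln1 fell by 0.20 on the log2 scale. The other genes with CACGTG were Ctsl, Lgmn, Gaa and Lamp1, and none of the 3 genes that rose more than 10-fold held the core in the promoter searched. GAGGAAGT, the motif of the myeloid factor PU.1, was found in the promoters of Ctsc, Ctss, Gusb and Itgav, 4 of 33 (12.1%), against 3.69% of all genes. A match is a run of letters and does not show that a factor binds there.

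The wider pathway was read from 5 lists of further genes, 127 symbols of which 126 were in the table and 123 were tested. Of these, 68 rose, 20 fell and 35 did not pass the threshold, with a median log2 fold change of 0.26. For the lists that follow, the shares over all genes tested were 31.2% higher and 30.1% lower, with a median of 0.01. When libraries were scaled to the inner retina neuron markers, the split was 38 higher and 39 lower, against 2245 higher and 6639 lower of all 14644 genes. Among 30 other hydrolases, 20 rose and 3 fell, with the largest fall in Smpd1 (acid sphingomyelinase, from 184 ± 7.12 to 122 ± 2.94 CPM, SD, n = 3). Among 24 other membrane and sorting proteins, 11 rose and 5 fell, led by Slc15a3, a lysosomal peptide transporter (0.304 ± 0.149 to 5.22 ± 1.34 CPM), and Laptm4b (691 ± 28.6 to 395 ± 25.9 CPM). Among 19 other subunits of the proton pump, 9 rose and 2 fell, and the rise of Tcirg1, the a3 subunit known from osteoclasts and macrophages, was the largest (log2 fold change 1.91, standard error 0.14), while Atp6v0e2 fell by 0.33.

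The list of other receptors, ligands and engulfment genes had the highest median, 1.22. Of its 31 genes tested, 23 rose, 16 of them at least 2-fold, and 4 fell. Over all genes tested, 9.16% rose at least 2-fold. Rac2, a small GTPase of blood cells that drives engulfment, had the largest rise (0.321 ± 0.124 to 5.96 ± 1.63 CPM, SD, n = 3), and Tulp1, a photoreceptor protein that can also act as a ligand for uptake, the largest fall (1180 ± 49.3 to 356 ± 45.1 CPM). The regulators and autophagy genes did not lean to one side, with 5 rises, 6 falls and 8 genes short of the threshold out of 19 tested. Wipi1, an early autophagy protein, rose by 0.65 on the log2 scale, and Fnip2, a partner of folliculin in the control of TFEB, fell by 0.76.

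**Figure D3:**
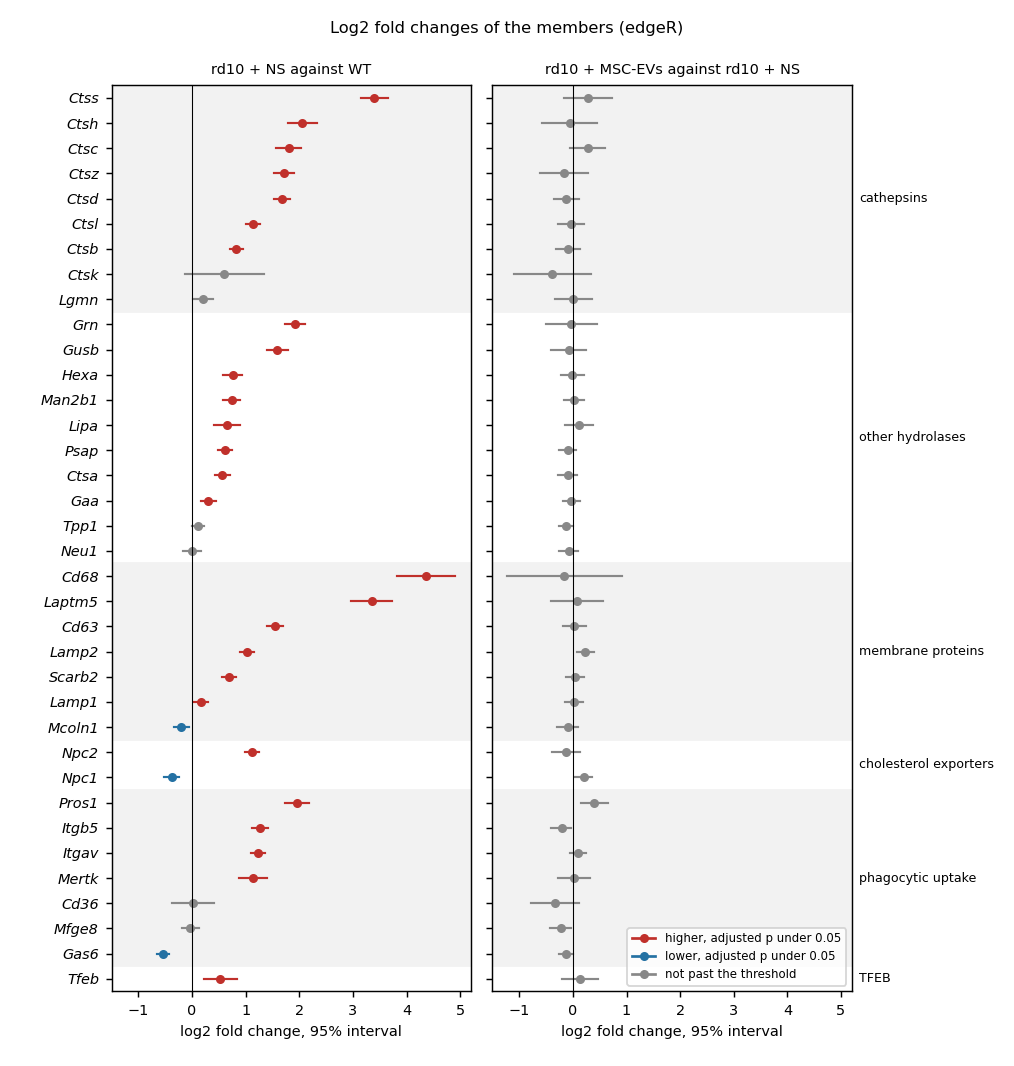
Log2 fold changes of 36 genes (points) with 95% intervals (lines) from edgeR's quasi-likelihood test, for NS-treated rd10 against WT (left) and MSC-EVs-treated against NS-treated rd10 (right), coloured by whether the adjusted p was under 0.05. In the left panel 27 genes are higher and 3 are lower. In the right panel no gene passes.

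Microglial markers moved with these genes. The 13 microglia markers, P2ry12 and Tmem119 among them, summed to 73.4 to 78 CPM in WT and to 285 to 342 CPM in NS-treated rd10, a ratio of means of 4.15, and all 13 rose. None of the 13 was at 0 in all libraries. The 15 markers of activated microglia and macrophages, Itgax and Spp1 among them, also all rose (597 ± 13.8 to 2670 ± 269 CPM, SD, n = 3), and Apoe, which other cells of the retina express as well, made up most of that sum (463 to 491 CPM in WT and 1800 to 2300 CPM in NS-treated rd10). Of the 11 Müller glia markers 9 rose, with a ratio of 1.28, and the sum of the 10 endothelium and pericyte markers had a ratio of 1.6. Their parts in the rises were not tested.

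Set against the summed microglia markers, the 17 genes with at least 2-fold rises were of 3 kinds. Cd68 was at 1.5, 1.77 and 2.49 CPM per 100 CPM of microglia markers in WT and at 9.67, 10.9 and 7.66 in NS-treated rd10, a ratio of means of 4.9. For Ctss the ratio was 2.54 and for Laptm5 2.43, so these 3 genes were higher in NS-treated rd10 even when set against the markers. Ctsh (ratio 1.01), Pros1 (0.949), Grn (0.912) and Ctsc (0.836) had risen about as much as the markers. Grn was at 47.4, 50.2 and 48.4 CPM per 100 CPM in WT, at 45.9, 43.1 and 44.1 in NS-treated rd10 and at 44, 43.3 and 43.3 with MSC-EVs, a narrow range over all 9 libraries. The other 10 had risen less than the markers, with ratios from 0.793 for Ctsz down to 0.496 for Lamp2. The grouping describes ratios of means, with boundaries chosen after the values were seen, and does not show which cells the RNA came from.

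**Figure D4:**
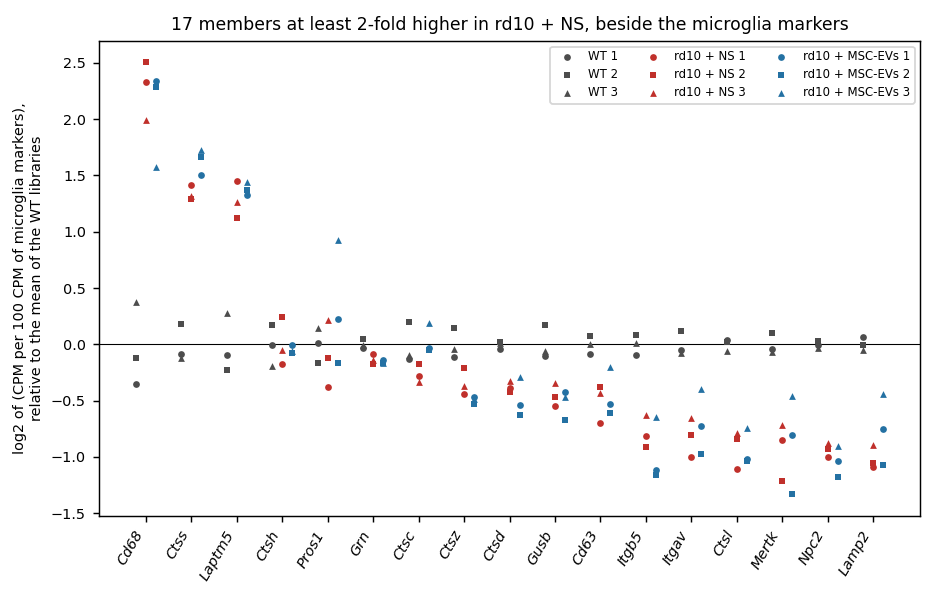
The 17 genes that rose at least 2-fold between WT and NS-treated rd10, as CPM per 100 CPM of 13 summed microglia markers in each library, on a log2 scale relative to the mean of the WT libraries (points, coloured by group and shaped by replicate). Cd68, Ctss and Laptm5 lie above 0 in all 6 rd10 libraries, Ctsh and Grn lie close to 0, and the genes to the right of Ctsc lie below it in all 6 rd10 libraries.

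With MSC-EVs, the lysosomal genes stayed near the level of NS-treated rd10. Their share of all counts was 0.637% to 0.786%, or 6980 ± 713 CPM (SD, n = 3). All 37 genes were tested against NS-treated rd10, 0 of them had an edgeR adjusted p under 0.05, and 5 had an unadjusted p under 0.05. Of the 14765 genes tested, 0.914% were called higher and 0.251% lower, and 0.061% were called with a change of at least 2-fold in either direction. Of those calls 78.5% were higher, but 97.6% of the fewer calls under inner retina scaling and 54.8% on the FPKM scale. A DESeq2 Wald test called 1 of the 37, Pros1, and over all 14764 genes it called 631 higher and 299 lower. The median log2 fold change was -0.03, against 0 for all genes, and single values ran from -0.38 for Ctsk to 0.40 for Pros1. For 34 of the 37 genes the 95% interval lay within a 2-fold change in either direction. The other 3, Ctsk, Cd68 and Atp6v0d2, had wider intervals, and that of Cd68 ran from -1.23 to 0.92.

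The 3 higher genes at an unadjusted p under 0.05, where 11.6% of all genes lay, were Pros1, Lamp2 and Npc1. Pros1 was at 58.9, 65.7 and 74.2 CPM with NS and at 86.9, 77.3 and 97.2 CPM with MSC-EVs (log2 fold change 0.40, standard error 0.11, edgeR adjusted p = 0.0916). All 3 MSC-EVs-treated libraries were above all NS-treated libraries, and the adjusted p over the alternatives ran from 0.0147 to 0.261. Lamp2 was at 231, 221 and 221 CPM with NS and at 283, 264 and 241 CPM with MSC-EVs (log2 fold change 0.23, edgeR adjusted p = 0.11). Npc1 was at 108, 99.3 and 93.1 CPM with NS and at 111, 112 and 120 CPM with MSC-EVs (log2 fold change 0.20, edgeR adjusted p = 0.17), on the side of WT, where it was at 130 ± 3.28 CPM (SD, n = 3).

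The 2 lower genes at an unadjusted p under 0.05, where 8.6% of all genes lay, were Mfge8 and Itgb5. Mfge8 was at 266, 320 and 266 CPM with NS and at 247, 257 and 224 CPM with MSC-EVs (log2 fold change -0.22, edgeR adjusted p = 0.194). Itgb5 was at 106, 92.3 and 100 CPM with NS and at 83.6, 94.2 and 79.4 CPM with MSC-EVs (log2 fold change -0.21, edgeR adjusted p = 0.191), with overlapping libraries. In 6 of the 37 genes the libraries of the 2 rd10 groups did not overlap, namely Pros1, Lamp2 and Npc1 higher and Mfge8, Gas6 and Tpp1 lower with MSC-EVs. This is 3 in each direction, and 26.2% of all genes tested did not overlap.

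The MSC-EVs-treated libraries differed more among themselves than the WT libraries did. Over the 36 genes the median coefficient of variation was 3.85% in WT, 7.73% in NS-treated and 9.95% in MSC-EVs-treated rd10. MSC-EVs replicate 3 was the lowest of the 3 MSC-EVs-treated libraries in 30 of the 37 genes and the lowest of all 6 rd10 libraries in 22. Cd68 was at 32.1, 36.2 and 13 CPM in MSC-EVs replicates 1, 2 and 3, Ctsz at 77.7, 86.3 and 52.5 CPM, Grn at 146, 167 and 98.8 CPM, and Ctsd at 1150, 1270 and 944 CPM. In each of these genes the first 2 libraries lay within or near the range of NS-treated rd10, and replicate 3 lay below it. The microglia markers had the same order, at 331, 386 and 228 CPM. Pros1 and Npc1 had the opposite pattern, with replicate 3 the highest of the 3.

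Since replicate 3 was also the only MSC-EVs-treated library without Y-linked transcripts, its lower values, its depth and the sex of its source cannot be told apart. Without it, the log2 fold change of Cd68 against NS-treated rd10 was 0.19 in place of -0.16, and the median over the 37 genes was 0.06. When it stood alone against the NS-treated libraries, which also lacked Y-linked transcripts, Cd68 was at -1.19, Ctsz at -0.61, Ctsh at -0.52 and Pros1 at 0.57, the median was -0.15, and again 0 of the 37 genes had an edgeR adjusted p under 0.05, while 13 (35.1%) had an unadjusted p under 0.05, against 18.4% of all 15270 genes tested. In that comparison 1 library is assumed to vary like the NS-treated ones.

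**Figure D5:**
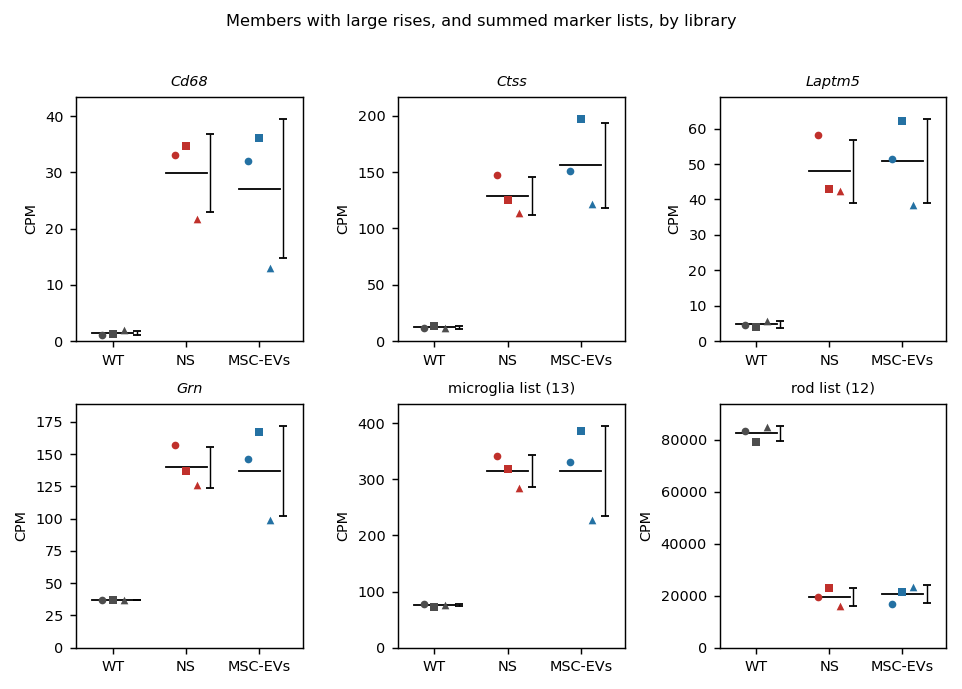
CPM of Cd68, Ctss, Laptm5 and Grn and the summed CPM of 13 microglia and 12 rod markers in each library of the 3 groups (points, shaped by replicate), with the group mean (horizontal line) and its SD (bar beside the points, n = 3). In the 4 genes and in the microglia markers, MSC-EVs replicate 3 (triangle) is the lowest of its group, while in the rod markers it is the highest.

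Of the 123 further pathway genes tested, none rose and 1 fell with MSC-EVs, against 0.914% and 0.251% of all genes. An unadjusted p under 0.05 was found in 22 of the 123, 5 of them higher and 17 lower. Over all 14765 genes tested it was found in 20.2%, with 11.6% higher and 8.6% lower. Megf10, an engulfment receptor of glia, went from 74.7 ± 3.19 CPM with NS to 56.5 ± 4.97 CPM with MSC-EVs (SD, n = 3), against 32.1 ± 2.44 CPM in WT (log2 fold change -0.40, standard error 0.08, edgeR adjusted p = 0.049). The call was lost without NS replicate 1, 2 or 3 or MSC-EVs replicate 1 or 3, each left out in turn, and under both other scalings. Müller glia markers summed to 5940 to 6870 CPM with NS and to 5080 to 5520 CPM with MSC-EVs, and their part in this difference was not tested.

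Compared with WT, MSC-EVs-treated rd10 showed 27 higher and 4 lower genes among 36 tested, against 28.3% and 27.2% of all 14623 genes tested. Among the calls over all genes, 51% were higher, but 27.9% under inner retina scaling and 71.2% on the FPKM scale. At least 2-fold higher were 16 of the 36, against 9% of all genes, and none was at least 2-fold lower, against 3.2%. With inner retina scaling, 13 were at least 2-fold changed. This comparison shares its WT libraries with the first. The genes that fell were Gas6, Mcoln1, Mfge8 and Npc1, with log2 fold changes of -0.65, -0.30, -0.25 and -0.18. On the FPKM scale Gas6 alone of these 4 passed the threshold, and Mfge8 was at 133 ± 5.44 FPKM in WT and 125 ± 9.15 FPKM with MSC-EVs (SD, n = 3). Cd68 was 18.6-fold, Ctss 12.9-fold, Laptm5 10.8-fold and Pros1 5.15-fold higher than in WT. Atp6v0d2 had 31, 14 and 22 counts with MSC-EVs, against 0, 1 and 0 in WT.

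Per transcript length, Psap and Ctsd were the most abundant of the 37 in every group. Psap led in WT with 257 ± 5.14 FPKM, followed by Ctsd with 167 ± 1.78, Lamp1 with 140 ± 5.44 and Mfge8 with 133 ± 5.44 FPKM (SD, n = 3), and the last 2 lay within their spread of each other. In NS-treated rd10, Ctsd led with 604 ± 39 FPKM, ahead of Psap with 444 ± 17.4 and Ctsb with 206 ± 8.55 FPKM. Ctss moved from rank 26 of 37 in WT to rank 9 in both rd10 groups, with 8.32 ± 0.824, 99.3 ± 12.1 and 120 ± 29.3 FPKM. Gas6 moved from rank 7 in WT to rank 15.5, shared with Tpp1, in NS-treated rd10, and was at rank 14 with MSC-EVs. At the lower end, Ctsk and Atp6v0d2 stayed under 1 FPKM in all groups.

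Reads of some of these genes could belong to a neighbour, because the strand of the libraries is not given. The build behind the files is not given in the sources used here, and positions were taken from GENCODE M21 (GRCm38) by gene ID, which matched all 37 genes. There, Ctsa on chromosome 2 from 164832873 to 164841032 shares 17.4% of its exonic bases with Neurl2 and Pltp on the other strand. Ctsb on chromosome 14 from 63122462 to 63145923 shares 12.8% with Fdft1, Hexa on chromosome 9 from 59539540 to 59565109 shares 12.8% with Tmem202, and Lamp1 on chromosome 8 from 13159161 to 13175338 shares 9.31% with Grtp1. Ctsd on chromosome 7 from 142375911 to 142388038 shares 34.4% with the gene model Gm49369 on the same strand, which was assigned 18 to 43 counts in WT beside 7808 to 8587 for Ctsd. Cd68 on chromosome 11 from 69664213 to 69666153, Ctss on chromosome 3 from 95526786 to 95556403, Laptm5 on chromosome 4 from 130913125 to 130936141 and Pros1 on chromosome 16 from 62854307 to 62929346 share no exonic base with another gene of the table.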

How the data were processed

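The authors enriched messenger RNA with oligo(dT), and deposited 1 table. Per library, the authors had estimated the expected counts of 22337 genes and their FPKM values, which scale fragments to transcript length and depth. The submitters' processing notes name fastp, Bowtie2, HISAT2, StringTie 1.3.1 and RSEM without their roles, and the genome build is not given in the sources used here. Between 9.16% and 11.7% of genes per library had decimals, so the deposited expected counts were rounded. The design had assumed whole counts.

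Each pair of groups was fitted alone in edgeR 4.0.16 (R 4.3.3) with filterByExpr, TMM and robust quasi-likelihood tests, and Benjamini-Hochberg adjusted over all genes tested. A call is an adjusted p under 0.05. The standard error is the absolute log2 fold change divided by the square root of F. On simulated counts the test recovered the planted directions. Alternatives used DESeq2 1.42.0, limma 3.58.1 on log2(FPKM + 1) and log2(FPKM + 0.1), other scalings and filters, and each library left out in turn.

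The members and gene lists were chosen with earlier results of these data known. All 37 members are accounted for. Of each pathway list, the largest rise and fall past the threshold with at least 5 CPM in 1 group are named, and of marker lists the first 2 genes, except for some genes that are not reported here. Cone, lens, ciliary body and blood cell markers summed to 1490, 82.8, 165 and 81.9 CPM in WT, 1190, 49.6, 91.1 and 100 CPM in NS-treated and 1030, 70.6, 84 and 140 CPM in MSC-EVs-treated rd10. Atp6v0a3, 1 of the 127 pathway symbols, is another name of Tcirg1. The functional annotation columns of the table were not used.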

Additional observations from a re-analysis of the deposited data

How the results depend on the processing

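Between NS-treated rd10 and WT, the number of lysosome and clearance genes that passed (30, with 27 higher) stayed within 1.5 times under every alternative run, and 17 to 18 were at least 2-fold changed when each library was left out in turn. Scaled to inner retina neuron markers, 12 were at least 2-fold changed. The scaling moved the level of all genes. Scaled to inner retina neuron markers, the median of all genes was -0.26 and that of the members 0.53 (0.56 for MSC-EVs-treated rd10 against WT, where all genes were at -0.21), and with log2(FPKM + 1) and log2(FPKM + 0.1) the members were at 0.95 and 0.96 (0.88 and 0.91), so that relative to all genes they stayed at 0.79 to 0.81 between NS-treated rd10 and WT. Under inner retina scaling, Lamp1 reversed to -0.09 in NS-treated and -0.01 in MSC-EVs-treated rd10 and Tpp1 to -0.21 in the latter, the pathway genes split into 38 higher and 39 lower, and the pathway call with MSC-EVs became 0. Mcoln1 reversed to 0.02 on both FPKM scales. Between MSC-EVs-treated rd10 and WT, 1 member was lower with both FPKM scales, 2 with the Y-linked covariate (median 0.68) and 2 without both MSC-EVs libraries that carry Y-linked transcripts (median 0.67), which was chosen after seeing the data. The cause was not tested. Atp6v0d2 was called higher in NS-treated rd10 without the filter on low counts, with all 9 libraries fitted together, and without WT replicate 1, 2 or 3 or NS replicate 3.

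Between the rd10 groups, 1 member (Pros1, higher) passed with the DESeq2 Wald test, with the replicate block and without MSC-EVs replicate 2, and 0 in the other fits, where 3 to 13 members (8.11% to 35.1%) had an unadjusted p under 0.05, against 13.3% to 24.6% of all genes. The members' median was -0.16 with the Y-linked covariate and -0.15 without both libraries that carry Y-linked transcripts. Of the pathway genes, the DESeq2 Wald test called 2 higher and 4 lower (6 in all), the replicate block 2, both lower, and DESeq2's size factors 0. Over all genes, the DESeq2 Wald test called 631 higher and 299 lower of 14764. With the replicate block 292 were higher and 111 lower of 14765, and without MSC-EVs replicate 2, 426 and 250 of 14908. When each library was left out in turn, 0 to 1 member passed (higher 0 to 1), the median ran from -0.09 to 0.06, and 0 to 3 pathway genes passed (higher 0 to 1, lower 0 to 2). Against WT, leaving out each library gave medians of 0.74 to 0.86 for NS-treated and 0.74 to 0.85 for MSC-EVs-treated rd10. The replicate numbers pair no samples by the labels. Deviations of same-numbered libraries correlated at 0.089, 0.2 and 0.28 between the rd10 groups, each library best with its own number, and at -0.074 to 0.065 between WT and NS-treated rd10. With the replicate block 28 members were higher between NS-treated rd10 and WT, Lgmn being added, as it was with the DESeq2 Wald test and without the filter on low counts.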
